A study of Mus musculus with 20 samples.

Results

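The serotonin receptor genes Htr1a, Htr1b, Htr1d, Htr1f, Htr2a, Htr2c, Htr4, Htr5a, Htr6 and Htr7 were taken by name from the count table, and 9 of the 10 had a row among its 12988 genes. Htr1f was not analysed here. The table held RNA sequencing counts for 20 libraries of the mouse adBNST, the anterodorsal part of a forebrain nucleus called the bed nucleus of the stria terminalis. Male and female mice, 7 to 9 weeks old at the start, were kept under control conditions or given chronic variable mild stress (CVMS), a 6-week schedule of changing minor stressors such as wet bedding, a tilted cage, isolation or swimming. Each of the 4 groups (control or stressed mice of each sex) had 15 mice, the adBNST of 3 mice was pooled into each library, and each group thus had 5 libraries. Tissue was taken under ketamine, in the stressed mice 1 hour after a last stressor of wet bedding. No strain, transgene or drug other than the anaesthetic is named in the labels.

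Serotonin is released in the forebrain by axons of raphe neurons and acts on a family of G protein-coupled receptors. Receptors of the first type (Htr1a, Htr1b, Htr1d) and Htr5a couple to Gi/o proteins, which lower cyclic AMP and, for Htr1a in particular, open potassium channels, so they generally quieten neurons or their terminals. Htr2a and Htr2c couple to Gq proteins and phospholipase C, and Htr4, Htr6 and Htr7 couple to Gs proteins and adenylyl cyclase. The bed nucleus is a largely GABAergic region that receives serotonin fibres and is studied for its part in anxiety-like and stress behaviour, with Htr1a and Htr2c often discussed there as opposing influences.

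The promoter stretches of 4 receptors are shown. Each of these genes was correlated with some other receptor across the libraries, as given below, but Htr1b and Htr2a were the only pair among the 4 that passed. Each stretch is the part of the RefSeq window (250 bases before to 50 after the start, build GRCm38.p6) that lies before every annotated start, written 5′ to 3′ on the gene's strand. The Htr7 window had 0 such bases. Capitals mark GGGCGG, the core of the SP1 site, or its reverse complement. The stretches lie at chr13:105443443-105443638 (+) for Htr1a, chr9:81633833-81634082 (-) for Htr1b, chr4:136423274-136423521 (+) for Htr1d and chr14:74640624-74640839 (+) for Htr2a.
Htr1a: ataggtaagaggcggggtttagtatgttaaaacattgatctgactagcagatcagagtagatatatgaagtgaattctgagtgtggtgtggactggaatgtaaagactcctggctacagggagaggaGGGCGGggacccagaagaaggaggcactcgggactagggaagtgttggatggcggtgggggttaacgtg
Htr1b: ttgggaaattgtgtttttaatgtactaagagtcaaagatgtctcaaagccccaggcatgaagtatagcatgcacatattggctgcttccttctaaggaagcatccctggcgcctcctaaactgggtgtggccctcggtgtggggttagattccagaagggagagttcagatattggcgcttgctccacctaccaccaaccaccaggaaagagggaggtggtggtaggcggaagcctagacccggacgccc
Htr1d: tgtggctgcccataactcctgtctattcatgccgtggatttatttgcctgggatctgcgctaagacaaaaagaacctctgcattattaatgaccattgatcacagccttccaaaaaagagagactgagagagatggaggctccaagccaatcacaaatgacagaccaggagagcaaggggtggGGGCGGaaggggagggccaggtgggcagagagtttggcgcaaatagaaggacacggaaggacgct
Htr2a: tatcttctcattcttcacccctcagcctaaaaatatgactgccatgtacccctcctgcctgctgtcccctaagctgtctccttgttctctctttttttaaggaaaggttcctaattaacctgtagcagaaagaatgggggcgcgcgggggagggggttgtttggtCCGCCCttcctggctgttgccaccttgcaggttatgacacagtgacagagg
Windows were listed for 8 of the 9 measured receptors. In the full windows, both strands searched, GGGCGG was found for Htr1a, Htr1d, Htr2a and Htr6 and not for Htr1b, and 35.66% of all 32851 RefSeq promoters held it. The cyclic AMP response element TGACGTCA was in none of the 8 receptors' windows and in 1.79% of all promoters, and the TATA motif TATAAA was in none of them and in 13.62% of all. The shorter element TGACG (20.81% of all) and the EGR motif GCGTGGGCG (0.6119% of all) were each found once in the Htr7 window. The AP-1 motif TGANTCA, in 7.808% of all promoters, was found in the Htr2c window only. These matches describe letters in the windows and nothing more. The Htr1b window held none of these 6 motifs, so it could share none with the window of any other receptor.

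Total counts per library ran from 2.71 M to 33.6 M (mega counts), and 1 member count was as low as 6 (Htr6 in female control 4). All pairs of libraries within a group differed beyond sampling noise (chi-square over its degrees of freedom, 1.88 to 39.4). Gad1 and Gad2, the GABA-synthesising enzymes, averaged 706 and 1125 CPM (counts per M counts of a library, scaled by TMM factors) and Crh and Prkcd, which mark bed nucleus cell types, averaged 19.02 and 58.6 CPM, with none of these at 0 in any library. Markers of neighbouring tissue varied. The 14 markers of striatal medium spiny neurons, none at 0, summed to 3109 to 5634 CPM in control and 3045 to 6330 CPM in stressed females, and to 2876 to 3680 CPM in control and 4165 to 6407 CPM in stressed males, so the male controls lay below the stressed males without overlap. All 14 had higher estimates in stressed than in control males and an unadjusted p under 0.05, and all 14 had lower ones in male than in female controls, 13 of them with an unadjusted p under 0.05. Markers of hypothalamus (5 of 11 with a row) were highest in stressed female 2, with a score 1.16 log2 units above the mean of the libraries, and lowest in stressed male 3, at -1.29. All 12 oligodendrocyte markers had lower estimates in stressed than in control females, 7 with an unadjusted p under 0.05 (58.3% against 7.51% of all genes). All 11 microglial markers had lower estimates in male than in female controls, 6 with an unadjusted p under 0.05 (54.5% against 15.3%).

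Scaled by exon length, the receptor transcripts spanned about an order of magnitude. Htr2c, which encodes a Gq-coupled receptor known for RNA editing and whose gene lies on the X chromosome, averaged 14.9 CPM per kb of exon over the 20 libraries (13.6 to 16.8). Htr1b, a receptor best known for braking transmitter release at axon terminals, followed at 13.9 CPM per kb (10.1 to 18.8) and was below Htr2c in 14 of 20 libraries, so these neighbours overlapped. Htr7, a Gs-coupled receptor, averaged 6.15 CPM per kb (3.93 to 8.12), and its range lay wholly below that of Htr1b. These 3 transcripts stood above the other 6 in mean level.

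Htr1a, the autoreceptor of raphe neurons that also sits on their target cells, averaged 4.21 CPM per kb and was below Htr7 in all 20 libraries. Htr5a and Htr1d averaged 3.37 and 3.25 CPM per kb, and their order held in 12 of 20 libraries only. Htr2a, the receptor through which psychedelic drugs act, averaged 2.30 CPM per kb and exceeded Htr4, at 1.66, in all 20 libraries, although their ranges overlapped. Htr6, at 1.43 CPM per kb (0.826 to 2.20), was the lowest and Htr4 exceeded it in 12 of 20 libraries. With the length of the longest annotated transcript in place of the union of exons, the Htr2c level became 28.4 CPM per kb, and Htr1d (3.58) passed Htr5a (3.37).

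**Figure D1:**
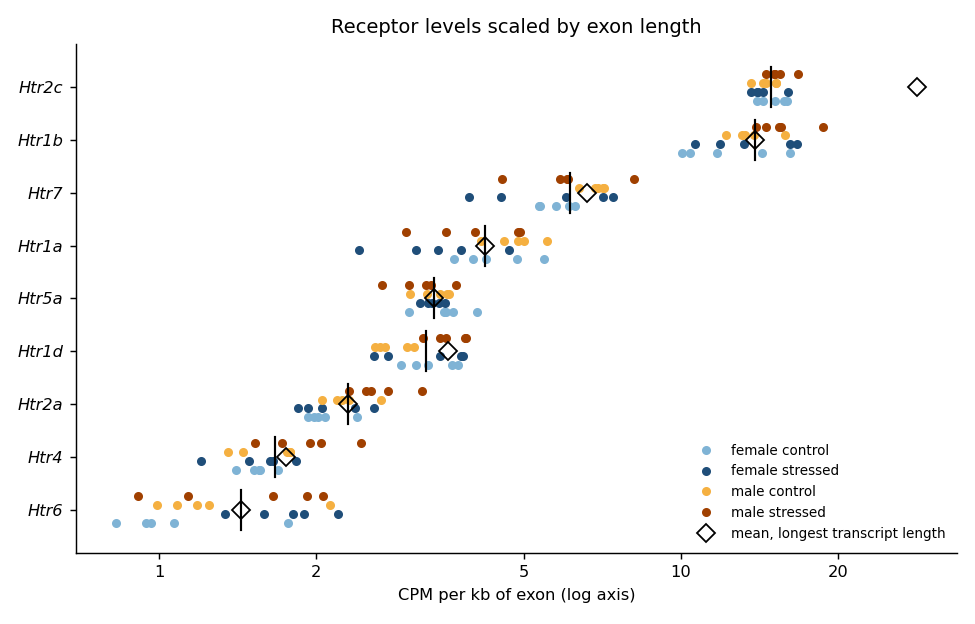
Level of each receptor transcript in CPM per kb of exon (log axis), 1 point per library coloured by group; the black line is the mean of 20 libraries and the open diamond the mean with the longest transcript's length. Htr2c and Htr1b lie at 14.9 and 13.9 CPM per kb, Htr6 at 1.43.

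The transcripts also differed in how much they varied between libraries. The coefficient of variation of CPM over the 20 libraries was 5.83% for Htr2c and 9.08% for Htr5a, both below the median of 9.65% over all 12988 genes. The other 7 receptors lay above that median, from 14.1% for Htr1d to 20.2% for Htr1a and 31.9% for Htr6. Htr2c was thus the most abundant and the steadiest of the receptor transcripts. Htr6 rested on 6 to 140 counts per library, so counting error takes a larger share of its spread.

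**Figure D2:**
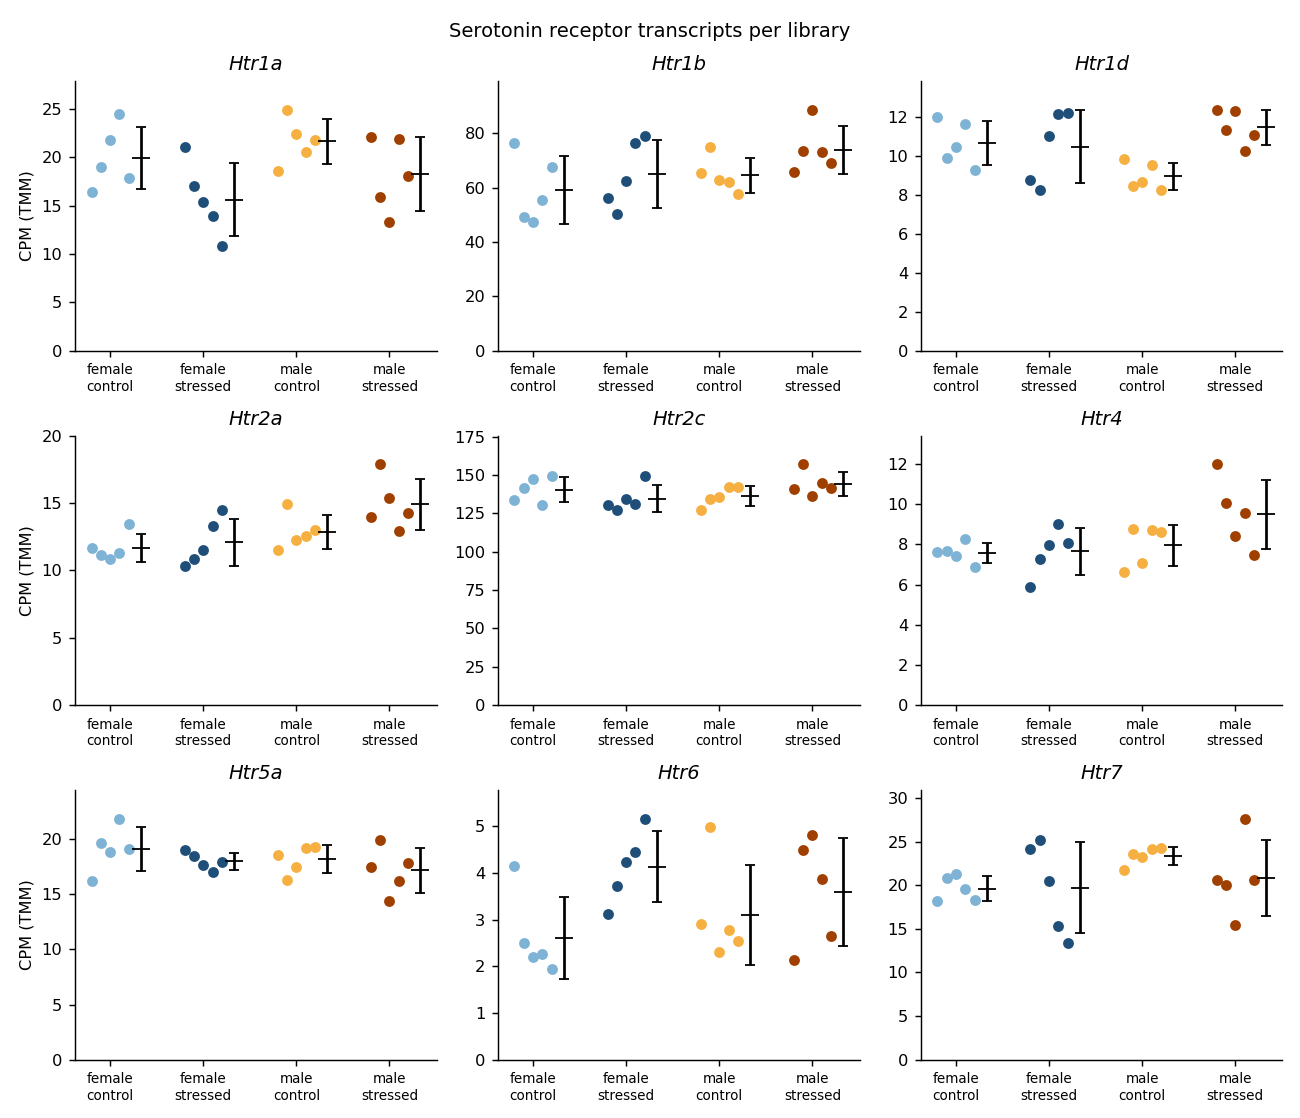
CPM of the 9 receptor transcripts, 1 point per library (replicates 1 to 5 from left to right in each group), with group mean ± SD (n = 5) at the right. The only pairs of groups without overlap in the stress and sex comparisons are Htr1d in male controls (8.28 to 9.85 CPM) against stressed males (10.2 to 12.4) and Htr7 in female (18.2 to 21.3) against male controls (21.7 to 24.2).

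The design asks whether CVMS, with its last stressor 1 hour before sampling, altered these transcripts in either sex. It also asks whether the sexes differed with or without stress, and whether stress acted differently in males and females. No group had the last stressor alone, so its effect and that of the 6 weeks of stress cannot be told apart. None of the 9 receptors passed the test in any of the 6 contrasts (edgeR quasi-likelihood test, Benjamini-Hochberg adjusted p under 0.05 over 12988 genes), and DESeq2 called 0 of 9 as well. The share of all genes called was 0% for stress in females, 0.0077% for stress in males, 0.747% for sex in controls, 0.077% for sex in stressed mice, 0% for the sex by stress interaction and 0% for stress averaged over the sexes. Few genes of any kind thus passed in these contrasts.

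An unadjusted p under 0.05 was reached by 2 of 9 receptors for stress in females (7.51% of all genes), 2 for stress in males (15.5%), 1 for sex in controls (15.3%), 2 for sex in stressed mice (7.06%), 1 for the interaction (10.4%) and 3 for averaged stress (12.7%). The median log2 difference of the 9 was -0.01 for stress in females, 0.20 for stress in males, 0.10 for sex in controls, 0.11 for sex in stressed mice, 0.09 for the interaction and 0.12 for averaged stress, and that of all genes was within 0.01 of 0 in each contrast. With the striatal marker score as a covariate, 14 of the 54 differences had the opposite sign, among them those of Htr1a, Htr1b, Htr2a, Htr6 and Htr7 for stress in males. The score did not overlap between control (-0.56 to -0.17) and stressed males (-0.02 to 0.60), so that fit cannot tell the score from stress in males. Its mean was also lower in male (-0.42) than in female controls (0.11). Htr1d was 1 of the 4.3% of genes whose groups did not overlap between control and stressed males, and Htr7 was 1 of the 3.97% so separated between female and male controls. No receptor was so separated for stress in females (1.22% of all genes) or for sex in stressed mice (1.27%). The contrasts share groups: stress in males and sex in controls both use the male controls, and stress in females and sex in controls both use the female controls. In tissue RNA, fewer cells expressing a receptor and less receptor RNA per cell cannot be told apart, and reads from neurons and from glia are summed.

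**Figure D3:**
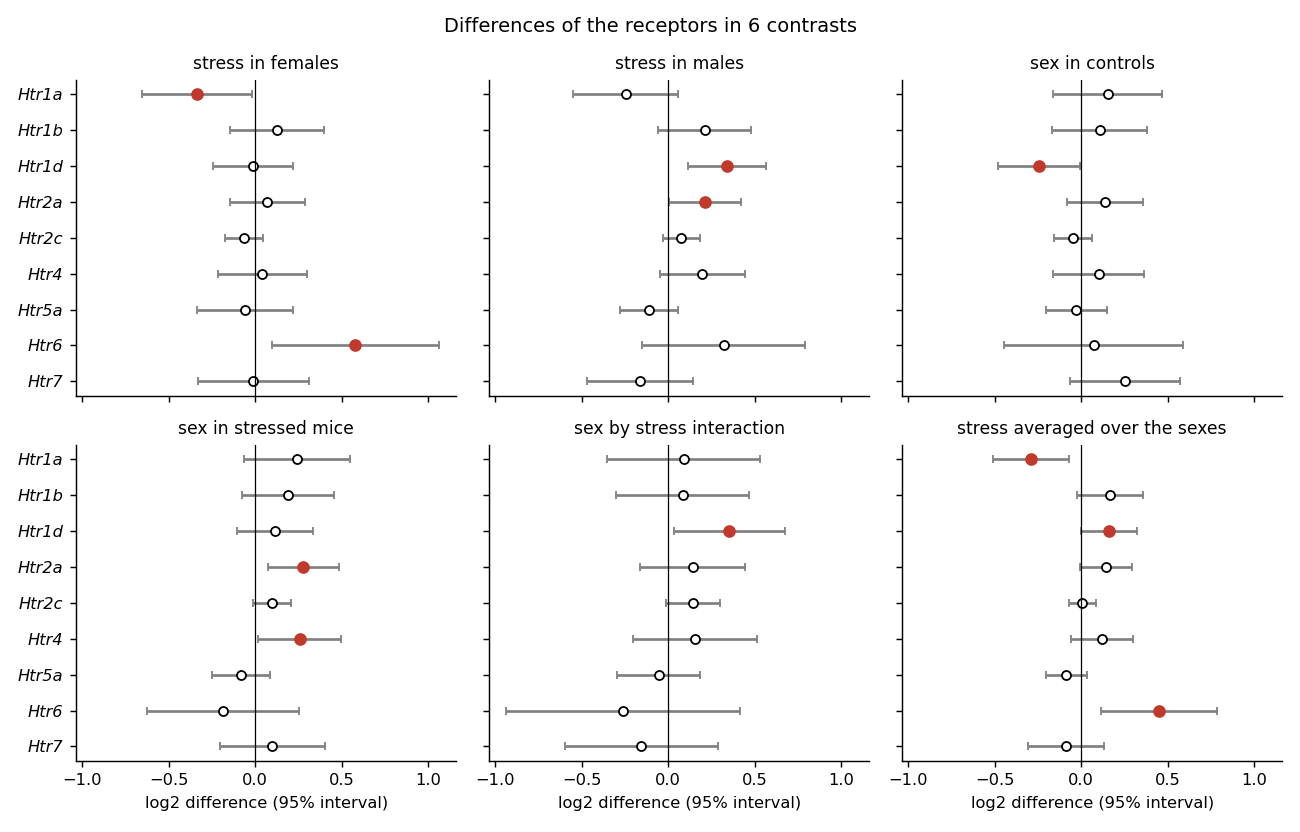
Log2 difference of each receptor in each contrast with its 95% interval; sex contrasts are male minus female, and the interaction is the male minus the female stress effect. Filled red points have an unadjusted p under 0.05; none of the 54 has an adjusted p under 0.05.

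Among the Gi/o-coupled receptors, Htr1a (chr13:105443639-105448122, + strand, a single exon) had lower estimates in stressed mice of both sexes. It measured 16.5, 18.99, 21.8, 24.5 and 17.9 CPM in female control libraries 1 to 5 and 21.03, 17.004, 15.4, 13.9 and 10.8 CPM in stressed female libraries 1 to 5. The groups overlapped, and the log2 difference was -0.33 (SE 0.15), with an unadjusted p of 0.0409 and an adjusted p of 0.658 from edgeR. Without stressed female 5, the lowest library of all 20, the difference was -0.22. In males the values were 18.6, 24.9, 22.4, 20.5 and 21.8 CPM in controls and 22.1, 15.9, 13.4, 21.9 and 18.1 CPM in stressed mice, again overlapping (log2 difference -0.25, SE 0.15). Averaged over the sexes the log2 difference was -0.29 (SE 0.11; edgeR adjusted p 0.286). With the striatal covariate the female value was -0.32, the male value turned to 0.07 (SE 0.14) and the averaged value was -0.12 (SE 0.10).

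Htr1d (chr4:136423524-136444398, + strand), a close relative of Htr1b and a target of triptan drugs, had its clearest separation in males. The 5 male controls measured 9.85, 8.48, 8.68, 9.56 and 8.28 CPM and the 5 stressed males 12.4, 11.4, 12.3, 10.2 and 11.1 CPM. Every stressed library was above every control library. The log2 difference was 0.34 (SE 0.11), a fold of 1.27, with an edgeR adjusted p of 0.133 that ranged from 0.0647 to 0.932 over the alternatives. With the striatal marker score as a covariate it was 0.11.

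In females Htr1d measured 11.99, 9.93, 10.5, 11.7 and 9.31 CPM in controls, against 8.77, 8.26, 11.1, 12.1 and 12.2 CPM with stress. Stressed females 1 and 2 were below all controls and stressed females 4 and 5 above them, and the log2 difference was -0.01 (95% interval -0.24 to 0.22). The test of the difference between the male and female stress effects gave 0.35 (SE 0.16; edgeR adjusted p 0.447). Between the controls, males had a lower estimate than females by -0.24 log2 (SE 0.11; edgeR adjusted p 0.318), and averaged stress gave 0.16 (SE 0.08; edgeR adjusted p 0.389). With the striatal covariate these 3 values were 0.16, -0.05 and 0.03.

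Htr1b (chr9:81628291-81633828, - strand) measured 76.5, 49.2, 47.5, 55.3 and 67.7 CPM in the female controls. In the stressed females it measured 56.2, 50.4, 62.5, 76.5 and 79.03 CPM. The male controls measured 65.3, 74.8, 62.8, 61.98 and 57.8 CPM and the stressed males 65.7, 73.5, 88.6, 73.1 and 68.98 CPM. All 4 groups overlapped, and the lowest unadjusted p over the 6 contrasts in edgeR was 0.0808, for averaged stress. The single change of call among the receptors was for this gene: with the striatal score as a covariate, male controls were higher than female controls by 0.46 log2 (SE 0.08; edgeR adjusted p 0.00486), against 0.11 (SE 0.13; adjusted p 0.767) without it. In that covariate fit 71 of all 12988 genes were called for sex in controls. An antisense gene, D430036J16Rik, overlaps the exons of Htr1b and averaged 9.07 ± 1.48 CPM (SD, n = 20), 13.7% of the Htr1b counts. The library kit marked strand, but the strand setting of the counting is not given in the sources used here, so a share of reads from the antisense gene in Htr1b cannot be told apart.

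Htr5a (chr5:27842149-27855088, + strand), a less studied Gi/o-coupled receptor, stayed between 14.4 and 21.8 CPM in all libraries. Its group means were 19.1 ± 2.01 CPM in control and 18.001 ± 0.760 CPM in stressed females, and 18.2 ± 1.27 CPM in control and 17.2 ± 2.04 CPM in stressed males (SD, n = 5). Its log2 differences over the 6 contrasts ran from -0.11 to -0.03, and all 95% intervals included 0.

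Of the Gq-coupled receptors, Htr2a (chr14:74640840-74709494, + strand) had higher estimates in males than in females under stress. Stressed females measured 10.3, 10.8, 11.5, 13.3 and 14.5 CPM and stressed males 13.97, 17.9, 15.4, 12.96 and 14.3 CPM. The groups overlapped through stressed females 4 and 5, and the log2 difference was 0.28 (SE 0.10; unadjusted p 0.00979, edgeR adjusted p 0.626). The male controls measured 11.5, 14.9, 12.3, 12.6 and 12.97 CPM, which gave a stress difference in males of 0.21 (SE 0.10; edgeR adjusted p 0.311). With the striatal covariate that value was -0.02. The female controls, at 11.7, 11.1, 10.8, 11.3 and 13.4 CPM, all lay within the range of the stressed females.

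Htr2c (chrX:146962513-147197277, + strand), the most abundant receptor transcript, measured 134, 142, 147, 131 and 149 CPM in the female controls. In the stressed females it measured 130.5, 127, 134, 131 and 150 CPM. The male controls measured 127, 134, 136, 142 and 142 CPM and the stressed males 141, 157, 136, 145 and 141 CPM. All 4 groups overlapped. The interaction was 0.14 (SE 0.08; edgeR adjusted p 0.514), and averaged stress gave 0.01 with a 95% interval from -0.07 to 0.08. Its introns hold 6 RefSeq microRNA hairpins, among them Mir448 and Mir1912, which were not analysed here. Choroid plexus also expresses Htr2c strongly. The 4 of 13 choroid plexus markers with a row (Kl, Clic6, Otx2 and Sostdc1), none at 0, correlated with Htr2c at r = -0.44 (rho = -0.38) over 20 libraries, with a permutation p of 0.0556 and an adjusted p of 0.145 for r and of 0.102 and 0.26 for rho, over the 99 relations described further on.

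Among the Gs-coupled receptors, Htr6 (chr4:139061108-139075570, - strand), a receptor enriched in striatum and forebrain, had the largest estimates of the 9 for stress in females and for averaged stress. Female controls measured 4.13, 2.50, 2.20, 2.26 and 1.93 CPM and stressed females 3.12, 3.71, 4.23, 4.43 and 5.15 CPM. Female control 1 lay inside the stressed range and the other 4 controls lay below it. The log2 difference was 0.58 (SE 0.23), a fold of 1.49, with an unadjusted p of 0.0210 and an edgeR adjusted p of 0.617. Without female control 1 it was 0.90, with an edgeR adjusted p of 0.336, the lowest over the alternatives, which reached 0.9998. In males the values were 2.91, 4.98, 2.31, 2.77 and 2.53 CPM in controls and 2.13, 4.49, 4.82, 3.87 and 2.66 CPM in stressed mice. Averaged over the sexes the log2 difference was 0.45 (SE 0.16; edgeR adjusted p 0.282), and with the striatal covariate 0.19.

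Htr7 (chr19:35958734-36057507, - strand), discussed in connection with mood and circadian timing, separated the controls by sex without overlap. The female controls measured 18.2, 20.8, 21.3, 19.6 and 18.3 CPM and the male controls 21.7, 23.5, 23.3, 24.1 and 24.2 CPM. The log2 difference was 0.25 (SE 0.15; unadjusted p 0.114, edgeR adjusted p 0.456), and -0.08 with the striatal covariate. Over the alternatives the adjusted p ranged from 0.0654, in the edgeR fit of the control groups alone, to 0.836. In the stressed groups the spread was wider, with 24.2, 25.2, 20.5, 15.4 and 13.4 CPM in females and 20.6, 19.98, 15.4, 27.6 and 20.5 CPM in males. The SD was 1.41 and 1.01 CPM in the female and male controls and 5.24 and 4.36 CPM in the stressed females and males; the difference in spread was not tested.

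Htr4, a receptor that raises cyclic AMP and is known in hippocampus and gut, measured 5.89, 7.29, 7.99, 8.99 and 8.09 CPM in stressed females and 11.98, 10.04, 8.43, 9.54 and 7.48 CPM in stressed males. The groups overlapped, and the log2 difference was 0.26 (SE 0.12; unadjusted p 0.0384, edgeR adjusted p 0.678). Its group means were 7.58 ± 0.499 CPM in female controls and 7.97 ± 1.02 CPM in male controls (SD, n = 5).

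Across the 20 libraries several receptors varied together. All 36 pairs of receptors were correlated on log2 CPM, with permutation p-values adjusted over the 36, and 9 passed for Pearson's r at an adjusted p under 0.05, 5 of them positive and 4 negative. No batch is named in the labels, and r was also computed with the group means removed. Htr1a and Htr7 were higher in the same libraries, with r = 0.78 (permutation p 0.00012, adjusted 0.00252) and rho = 0.62 (permutation p 0.00456, adjusted 0.0328), and r was 0.80 with the group means removed. Without the 2 libraries farthest in Htr1a, stressed female 5 and stressed male 3, r was 0.57. Htr1b and Htr2a had r = 0.74 (permutation p 0.0002, adjusted 0.00252) and rho = 0.80 (permutation p 7e-05, adjusted 0.0018), with 0.65 after removing the group means and 0.68 without the 2 farthest libraries in Htr1b. Both pairs thus held within the groups.

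Htr1d and Htr7 went in opposite directions, with r = -0.72 (permutation p 0.00021, adjusted 0.00252) and rho = -0.77 (permutation p 0.0001, adjusted 0.0018), r = -0.75 with the group means removed and -0.68 without the 2 farthest libraries in Htr1d. Htr1b and Htr5a were likewise opposed, with r = -0.68 (permutation p 0.00099, adjusted 0.00891), rho = -0.64 (permutation p 0.00294, adjusted 0.0265), -0.60 with the group means removed and -0.61 without 2 libraries. Htr1b and Htr6 were positively related, with r = 0.62 (permutation p 0.0039, adjusted 0.0281), rho = 0.65 (permutation p 0.00258, adjusted 0.0265), 0.66 with the group means removed and 0.53 without 2 libraries. The remaining 4 relations had smaller values without the 2 farthest libraries. They were Htr1a with Htr6 (r = -0.60, and -0.43 without the 2), Htr2a with Htr4 (0.60 and 0.43), Htr2a with Htr2c (0.56 and 0.32) and Htr5a with Htr6 (-0.56 and -0.44), whose permutation p without the 2 lay between 0.0684 and 0.194. Their r had an adjusted permutation p of 0.0284, 0.0284, 0.0441 and 0.0441 in that order, and their rho of -0.54, 0.59, 0.49 and -0.44 an adjusted permutation p of 0.0732, 0.0427, 0.110 and 0.170. With the group means removed r was -0.49, 0.36, 0.54 and -0.53, with a permutation p of 0.0383, 0.191, 0.0266 and 0.0451.

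**Figure D4:**
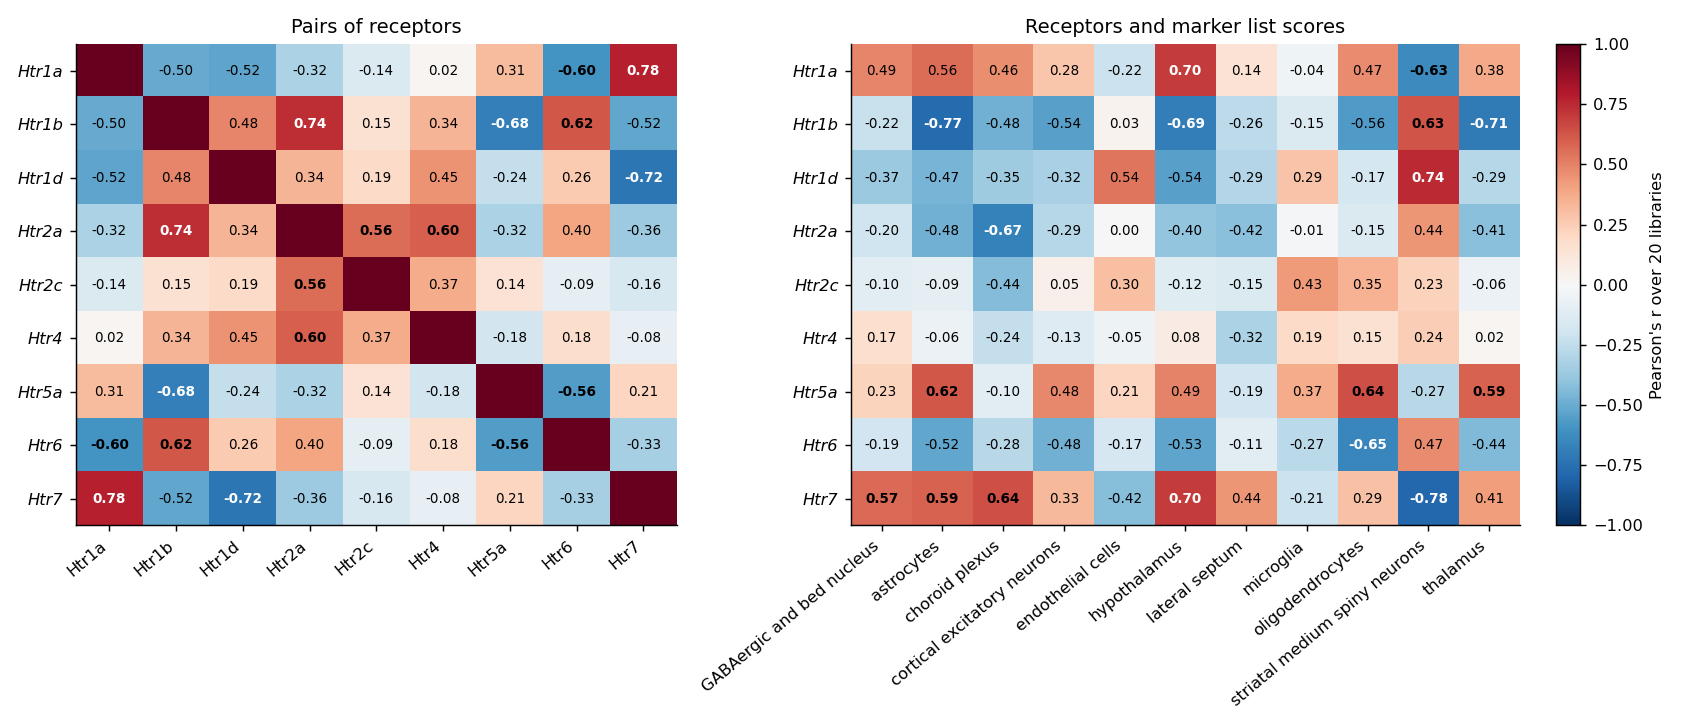
Pearson's r over 20 libraries between the receptors (left) and between each receptor and the score of each marker list (right); bold cells have a permutation p under 0.05 after adjustment over the 36 or the 99 relations. Htr1a and Htr7 form the strongest positive pair (0.78), and Htr7 and the striatal score the strongest negative relation (-0.78).

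The receptors also moved with markers of the tissue in and around the dissection. Of the 99 relations between the 9 receptors and the scores of 11 marker lists (mean log2 CPM of each list), 17 passed for r at an adjusted p under 0.05, 10 positive and 7 negative. The striatal score was related to 4 receptors. Htr7 was lower where it was high, with r = -0.78 (permutation p 2e-05, adjusted 0.00198), rho = -0.82 (permutation p 2e-05, adjusted 0.00198), -0.77 with the group means removed and -0.69 without the 2 libraries farthest in the score. Htr1d was higher there, with r = 0.74 (permutation p 0.00036, adjusted 0.0101), rho = 0.77 (permutation p 0.00015, adjusted 0.00743), 0.60 with the group means removed and 0.68 without the 2. The score was 0.41 in the highest and -0.43 in the lowest female control and between -0.56 and -0.17 in the male controls. It lay between -0.02 and 0.60 in the stressed males, without overlap with the male controls. The covariate fits given above thus cannot tell the score from stress in males. Its part in the receptor differences was not tested in any other way.

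Htr1b was also higher with the striatal score, with r = 0.63 (permutation p 0.00339, adjusted 0.0258), rho = 0.66 (permutation p 0.00215, adjusted 0.0304), 0.88 with the group means removed and 0.49 without the 2 libraries. Htr1a was lower, with r = -0.63 (permutation p 0.00217, adjusted 0.0193) and rho = -0.58 (permutation p 0.00782, adjusted 0.0553), with -0.59 after removing the group means (permutation p 0.0248) and -0.45 without the 2 farthest libraries (permutation p 0.0613). When the group means and the striatal score were both removed, the Htr1a and Htr7 relation was 0.67 (permutation p 0.00328) and that of Htr1b and Htr5a -0.69, while Htr1b and Htr2a were at 0.01 (permutation p 0.979) and Htr1b and Htr6 at 0.36. The pair of Htr1d and Htr7 was then at -0.57.

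**Figure D5:**
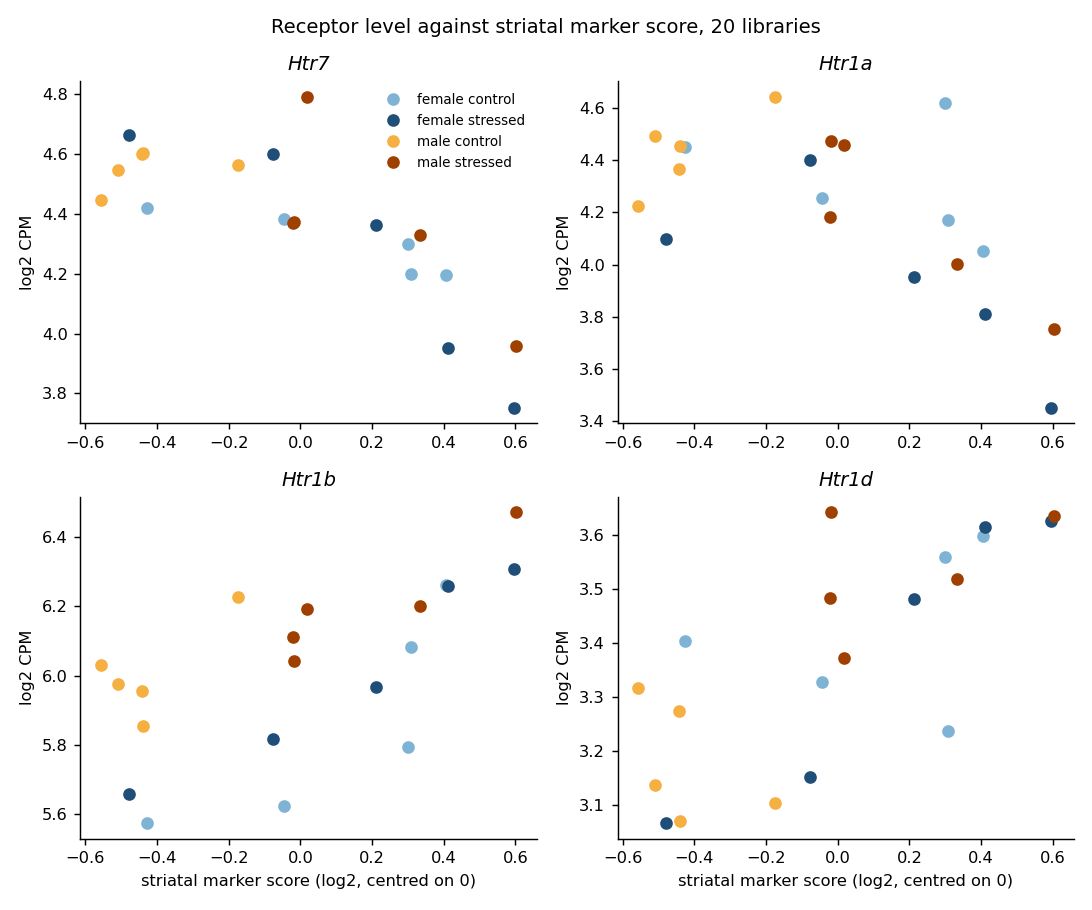
Log2 CPM of Htr7, Htr1a, Htr1b and Htr1d against the striatal marker score (mean log2 CPM of 14 genes, centred on 0), 1 point per library coloured by group. Htr7 and Htr1a are lower towards the right (r = -0.78 and -0.63), and Htr1b and Htr1d are higher there (0.63 and 0.74).

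Of the other lists, the hypothalamic score was positively related to Htr1a (r = 0.70) and Htr7 (0.70) and negatively to Htr1b (-0.69). Astrocyte markers went with Htr5a (0.62) and Htr7 (0.59) and against Htr1b (-0.77), thalamic markers with Htr5a (0.59) and against Htr1b (-0.71), and oligodendrocyte markers with Htr5a (0.64) and against Htr6 (-0.65). The choroid plexus score was opposed to Htr2a (-0.67) and went with Htr7 (0.64), and the GABAergic list went with Htr7 (0.57). All of these had an adjusted permutation p for r from 0.00445 to 0.0495, and 7 of the 13 also passed for rho. The lists shared extreme libraries, so the 13 relations are not independent of one another or of the striatal ones. Stressed male 3 had the highest striatal score (0.60) and the lowest hypothalamic (-1.29), thalamic (-0.46), oligodendrocyte (-0.44) and astrocyte (-0.27) scores. Relations between the lists were not tested. Without the 2 libraries farthest in the score, r was -0.47 for Htr2a with choroid plexus and 0.44 for Htr7 with astrocytes, with a permutation p of 0.0537 and 0.0661, against -0.89 and 0.74 over all 20 libraries with the group means removed. So centred, all 13 relations had the same sign as before, and the r of GABAergic markers with Htr7 was 0.48 (permutation p 0.107). No list passed for r with Htr2c or Htr4, and the lateral septal, cortical, microglial and endothelial lists passed for r with no receptor. None of the 9 receptors passed for r with the log2 total count, the lowest adjusted permutation p being 0.316. Htr1a had the lowest unadjusted one, with r = -0.46 (permutation p 0.0394) and -0.48 with the group means removed (permutation p 0.0385).

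By the Pearson r of log2 CPM with the group means removed, over 20 libraries, the genes nearest to 8 of the receptors were found among all 12988. Htr1b was nearest to Nptx2 (r = 0.95) and Homer1 (0.95), both known as genes that respond to neuronal activity. Htr7 was nearest to Fxyd6 (0.94) and 1500009L16Rik (0.92), Htr2a to Sertad2 (0.94) and Myt1l (0.87), and Htr1a to Nrip2 (0.91) and Nap1l4 (0.89). For Htr6 the nearest were Nop9 (0.85) and Acy1 (0.82), for Htr4 Adnp (0.84) and Klc2 (0.82), for Htr5a Ipo5 (0.83) and Sp7 (0.81), and for Htr1d Epor (0.82) and Kif17 (0.81). These are the highest values among all genes of the table for each of these receptors and are given as a description. Without removal of the group means, r of the same pairs ran from 0.51 (Htr2a with Myt1l) to 0.93 (Htr7 with 1500009L16Rik).

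The wider pathway was read from 65 genes of serotonin handling and receptor signalling, of which 55 had a row. For serotonin handling 7 of 11 genes had a row, and Tph2 and Slc6a4, the synthesising enzyme and the transporter of raphe neurons, were not analysed here. Ddc, the decarboxylase that makes serotonin and dopamine from their precursors, measured 26.9 ± 2.79 CPM in female controls, the group with the highest mean, and 25.6 ± 3.63 CPM in stressed males, the lowest. Maoa, which degrades serotonin, measured 52.1 ± 4.45 CPM in female controls, its highest mean, and 47.3 ± 3.72 CPM in stressed females, its lowest (SD, n = 5). None of the 7 was called in any contrast. Over all 55, 1 gene was called in 1 contrast. Rgs4, which speeds the shut-off of Gi/o and Gq signals, was lower in male than in female controls by -0.60 log2 (SE 0.13; edgeR adjusted p 0.0337), at 241 ± 18.8 against 368 ± 83.1 CPM without overlap. With the striatal covariate it was -0.25 (edgeR adjusted p 0.259). The call was lost in 7 of the fits without 1 control library (5 control libraries in each sex), with a highest edgeR adjusted p of 0.126 without female control 5. Over all alternatives that p ran from 0.00182 to 0.259.

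For stress in males 20 of the 55 genes had an unadjusted p under 0.05, 11 higher and 9 lower, which is 36.4% against 15.5% of all genes, and none was called by edgeR. The pathway lists were chosen with earlier results of these data known. This share and those of the other contrasts are therefore descriptions and not a test of the pathway. The smallest p was that of Arrb2, the arrestin that desensitises activated receptors. Male controls measured 42.3 ± 3.78 CPM and stressed males 34.2 ± 1.57 CPM, without overlap (log2 difference -0.31, SE 0.07, edgeR adjusted p 0.0806), and it was called by DESeq2 (adjusted p 0.0108), with only these groups in the fit (edgeR adjusted p 0.0245) and without stressed male 5 (edgeR adjusted p 0.0468), with a range over the alternatives from 0.0108 to 0.855. Of the 14 adenylyl cyclase and protein kinase A genes, 8 had an unadjusted p under 0.05, 4 higher and 4 lower. Among these, Adcy5 is itself in the striatal list.

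For sex in controls 17 of the 55 had an unadjusted p under 0.05, 6 higher and 11 lower in males (30.9% against 15.3%). The numbers were 2 for stress in females (3.64% against 7.51% of all genes) and 3 for sex in stressed mice (5.45% against 7.06%). They were 12 for the interaction (21.8% against 10.4%) and 12 for averaged stress (21.8% against 12.7%). None of the 55 was called by edgeR in these 4 contrasts. The smallest p belonged to Rgs4 for stress in females (-0.36, SE 0.13; edgeR adjusted p 0.597) and for the interaction (0.73, SE 0.19; edgeR adjusted p 0.261). It belonged to Arrb2 for sex in stressed mice (-0.19, SE 0.07; edgeR adjusted p 0.628). For averaged stress it was that of Adcy7, an adenylyl cyclase (-0.26, SE 0.08; edgeR adjusted p 0.270, 0.0480 without stressed female 2 and up to 1 over the alternatives).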

How the data were processed

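Per the labels' protocols, poly(A) RNA of pooled adBNST tissue was sequenced from stranded libraries, 5 for each of the 4 groups. The authors deposited raw counts per gene symbol in 1 table. Per the submitters' processing notes, STAR, featureCounts and build mm10 were used, and versions and the strand setting are not given in the sources used here. Every row of the deposited count table totalled at least 1002 counts, so less expressed genes were not analysed here.

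From the counts, a model with 1 mean per group was fitted to all genes of the 20 libraries with edgeR 4.0.16 in R 4.3.3 (TMM factors, quasi-likelihood test without the robust option). The filter filterByExpr kept all 12988 genes. P-values are two-sided and adjusted by the Benjamini-Hochberg method over all genes of a contrast, with a call at an adjusted p under 0.05, and every SE is the one implied by the test. CPM used the TMM factors, and log2 CPM a prior count of 2. Lengths are unions of exons of the GENCODE annotation of GRCm38, the same build as mm10. Correlation p-values come from 100000 two-sided permutations. Libraries are pools of different mice, and p-values measure the spread between pools. The model was tested on simulated data.

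The members, pathway lists and marker lists were chosen with earlier results of these data known. In each contrast, differences are given for receptors with an unadjusted p under 0.05, or the 2 with the smallest p, for pathway genes called and for the 1 pathway gene with the smallest p. The 2 genes most alike are named for each receptor. Values given beyond this rule, such as all group values, are descriptions. Alternatives were DESeq2 1.42.0, its size factors, no filter, a fit of the compared groups alone, a replicate block, the striatal score as a covariate, and each library left out. The correlation settings and the longest-transcript lengths were added after seeing the data. The genes nearest to Htr2c by correlation are not reported here.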

Additional observations from a re-analysis of the deposited data

Results flagged for a closer look

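In 2 of the 36 sets of 5 libraries (9 receptors in 4 groups), 1 library stood apart from the other 4 by more than Dixon's 95% critical value of 0.71 for the gap divided by the range. Chance alone flags about 1 in 20 such sets. Both sets were of Htr6, the lowest receptor transcript, in control mice. Female control 1 measured 4.13 CPM, from 101 counts, against 1.93 to 2.50 CPM in the other female controls, with a ratio of 0.745. Male control 2 measured 4.98 CPM, from 37 counts, against 2.31 to 2.91 CPM in the other male controls, with a ratio of 0.776. These 2 libraries had the highest striatal marker scores of their groups, 0.41 and -0.17; the part of this in the Htr6 values was not tested.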

How the results depend on the processing

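The number of receptors called stayed at 0 in all 6 contrasts with DESeq2, its size factors, no filter and the replicate block. It also stayed at 0 in the 4 contrasts of 2 groups with only these groups in the fit. The same held for all 80 contrast results of the 20 fits that left out 1 library. The number became 1 of 9 for sex in controls with the striatal covariate (Htr1b), a fit in which 71 of all 12988 genes were called for this contrast. Under that covariate, whose values did not overlap between control and stressed males, 14 of the 54 receptor differences changed sign. For stress in males they became 0.073 for Htr1a, -0.195 for Htr1b, -0.022 for Htr2a, -0.163 for Htr6 and 0.233 for Htr7, and for sex in controls -0.109 for Htr1a and -0.080 for Htr7. For the interaction they became -0.290 for Htr1b, -0.071 for Htr2a, 0.022 for Htr5a and 0.239 for Htr7, and for averaged stress -0.050 for Htr1b, -0.0099 for Htr2c and 0.113 for Htr7. With DESeq2 the stress difference of Htr7 in females became 0.0014.

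With 1 library left out, 11 of the 54 receptor differences changed sign in at least 1 fit. For stress in females the values ran from -0.084 to 0.079 for Htr1d, -0.0096 to 0.121 for Htr2a, -0.017 to 0.101 for Htr4 and -0.144 to 0.115 for Htr7. For sex in controls they ran from -0.092 to 0.0034 for Htr5a and -0.080 to 0.389 for Htr6, for sex in stressed mice from -0.044 to 0.235 for Htr7, and for averaged stress from -0.016 to 0.016 for Htr2c. For the interaction they ran from -0.030 to 0.195 for Htr1a, -0.047 to 0.170 for Htr1b and -0.109 to 0.011 for Htr5a. For the level of Htr2c, 28.4 CPM per kb with the longest transcript stood against 14.9.

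Over all genes, the numbers called moved more. For stress in males they were 1 with the model used here, 217 with DESeq2 and 303 with only the groups compared. For sex in controls they were 97, 248 with DESeq2, 304 with only the groups compared and 48 with the replicate block. For the interaction they were 0, 3 with DESeq2 size factors, 22 with DESeq2 and 1 with the striatal covariate. For averaged stress they were 0, 5 with DESeq2 size factors and 14 with DESeq2, and for stress in females 0, 1 with DESeq2 and 2 with the striatal covariate. The cause was not tested. With 1 library left out they ran from 0 (without stressed male 3) to 129 (without stressed male 5) for stress in males, 32 (without female control 5) to 214 (without female control 3) for sex in controls, 8 to 11 for sex in stressed mice, 0 to 4 for the interaction, 0 to 150 (without stressed female 2) for averaged stress and 0 to 0 for stress in females.

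The replicate numbers shared by the groups did not pair the libraries. Of the 30 same-numbered pairs, whose deviations from the group means correlated from -0.47 to 0.24, 5 exceeded 0.1, and 0 of 20 libraries correlated best with its own number. With the replicate block, the adjusted p of Rgs4 for sex in controls was 0.0569, and no other call of a named gene was altered. Depth limits Htr6 most, with 6 to 140 counts per library, and intervals of the receptors' differences are as wide as -0.94 to 0.42 log2 for its interaction.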

Other observations

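Grouped by G protein, the Gi/o-coupled receptors (Htr1a, Htr1b, Htr1d and Htr5a) held 48.3% ± 2.30 (SD, n = 20) of the summed CPM per kb of the 9 receptors, the Gq-coupled pair Htr2a and Htr2c 33.6% ± 1.70 and the Gs-coupled Htr4, Htr6 and Htr7 18.1% ± 2.00. The Gi/o share was 48.2% ± 2.94 in female controls, 48.04% ± 2.86 in stressed females, 47.99% ± 1.67 in male controls and 48.9% ± 2.17 in stressed males (SD, n = 5). The Gs share was widest in stressed females, from 14.8% to 22.6%, and narrowest in male controls, from 18.3% to 19.7%. The order of the classes turned with the length used: with the longest annotated transcript the Gq-coupled pair held 46.9% ± 1.93, the Gi/o-coupled receptors 38.2% ± 2.15 and the Gs-coupled receptors 15.0% ± 1.70 (SD, n = 20). These shares sum to a whole and were not tested. Within the Gi/o class, the Htr1a level ran from 2.42 to 5.55 CPM per kb over the 20 libraries and the Htr1b level from 10.1 to 18.8.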
